A study of Mus musculus with 8 samples.

Results

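The genes described here encode the adaptors, phosphatases and kinases that carry the T cell receptor signal inward and the NFAT and NF-kB factors at its end. There are 34 of them, chosen by gene symbol from knowledge of the pathway and with earlier results of these data known. Each was read at the probe set with the highest mean log2 intensity over all arrays. Of the 34, 33 were measured among 18193 genes named by a probe set, and Nfkb1 was not analysed here. The arrays were made from 2 T cell leukemia lines of FVB/NJ mice, both E2a-/- and so without the E proteins E12 and E47. The E2a-/- line carries unmodified Lef1, and the Lef1F/F line is E2a-/- too and homozygous for Lef1 alleles with loxP sites around the DNA binding domain. The cells received either the GFP retrovirus MigR1 or MigR1-Cre, which makes the recombinase Cre as well as GFP, and those positive for GFP were taken 72 h after infection. This gave 4 groups of 2 arrays. Each genotype is represented by 1 line, which means that an effect of the genotype and one of the line cannot be told apart, and Cre was driven by a retrovirus in established leukemia cells. The labels do not say that the arrays of a group came from separate infections, and a p-value here therefore reflects only how far these particular samples spread, possibly for technical reasons.

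The T cell receptor has no enzyme of its own. Its CD3 and zeta chains are phosphorylated by Lck, a kinase held in check by Csk and released by the phosphatase CD45, and then bind ZAP-70, which phosphorylates the adaptors LAT and SLP-76. On these adaptors assembles phospholipase C gamma 1, whose products raise calcium and move NFAT to the nucleus. Protein kinase C theta acts through BCL10 and MALT1 on NF-kB. Ubiquitin ligases, diacylglycerol kinases and other inhibitors limit the signal. In the thymus the same proteins serve the pre-T cell receptor.

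Of the 33 genes, 31 lay above the array median in all 8 arrays, and Rel and Cd69 lay below it in every array. The median intensity of an array was 88.9 to 91.0 units, and the precision of every value is limited by having 2 arrays a group. Lef1, the targeted gene, stood at 3288.0 and 3337.4 units in E2a-/- MigR1, 3007.6 and 3416.4 in E2a-/- MigR1-Cre, 6918.0 and 6126.0 in Lef1F/F MigR1, and 1903.0 and 1677.8 in Lef1F/F MigR1-Cre arrays. It fell with MigR1-Cre in the Lef1F/F line, with a log2 difference of -1.87 (SE 0.09, adjusted p = 0.000703). The sources used here do not say where its probe set lies relative to the loxP sites. A label field that disagrees with the titles names MigR1 for the E2a-/- MigR1-Cre arrays and MigR1-Cre for the Lef1F/F MigR1 arrays. The Lef1 levels follow the titles in the Lef1F/F line and cannot check them in the E2a-/- line, whose Lef1 has no loxP sites. Of 7 measured T lineage markers, 6 lay above the array median in every array, while Cd5 lay between 67.8 and 84.5 units. The 7 summed to 12573 to 13365 units in the E2a-/- line and 12484 to 15364 in the Lef1F/F line, and 3 of them (Cd2, Cd28 and Bcl11b) were higher in the Lef1F/F line in MigR1 arrays and 2 (Cd2 and Bcl11b) in MigR1-Cre arrays. No marker of B, natural killer, myeloid or erythroid cells passed the test in any comparison. Above the array median in every array lay 2 of 7 B cell, 0 of 4 natural killer, 1 of 6 myeloid and 1 of 5 erythroid markers. One stromal marker, Col1a2, stood at 4131.1 to 4377.4 units in the E2a-/- line and 251.8 to 310.6 in the Lef1F/F line. The summed level of the 6 stromal and endothelial markers was 4607 to 4857 units in the E2a-/- line against 711 to 830 in the Lef1F/F line, while Col1a1, Col3a1 and Pdgfra stayed between 45.4 and 70.7 units. The part of the T lineage and stromal markers in the differences between the lines was not tested. In bulk samples fewer cells of a kind and less RNA per cell cannot be told apart.

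**Figure D1:**
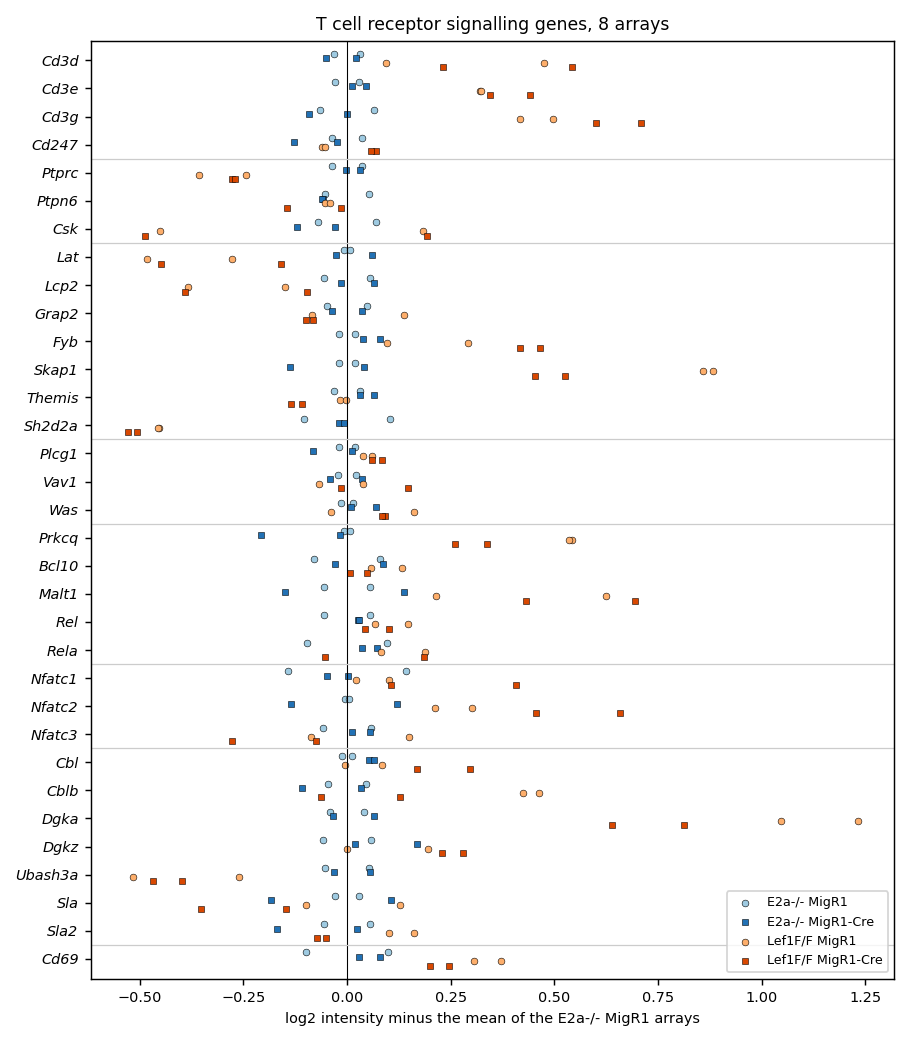
Log2 intensity of 33 genes in each of 8 arrays, minus the mean of the E2a-/- MigR1 arrays, ordered by role with lines between roles (circles, MigR1; squares, MigR1-Cre). The E2a-/- arrays stay near 0, whereas the Lef1F/F arrays of Dgka, Skap1 and Cd3g lie to the right and those of Sh2d2a, Ubash3a and Ptprc to the left.

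In the Lef1F/F line several genes differed between the arrays numbered 1 and those numbered 2 in much the same way under both vectors. Csk, the kinase that holds Lck inactive and chosen here after its values were seen, stood at 1046.5 and 1052.9 units in array 1 of Lef1F/F MigR1 and MigR1-Cre and at 674.0 and 657.2 in array 2. Over the 33 genes, the log2 difference between array 1 and array 2 under MigR1 correlated with that under MigR1-Cre with r = 0.80 in the Lef1F/F line and r = 0.32 in the E2a-/- line. The sign of that difference was the same under both vectors in 22 of 33 genes in each line. Its median size was 0.08 to 0.10 in every group, so the lines did not differ in these respects. These are descriptions over genes that share their arrays and are not independent. In 7 genes, Cd3d, Csk, Lat, Lcp2, Malt1, Nfatc3 and Sla, the difference was over 0.2 in size under both vectors of the Lef1F/F line. The share over all genes was not computed. The labels name nothing that joins these arrays.

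**Figure D2:**
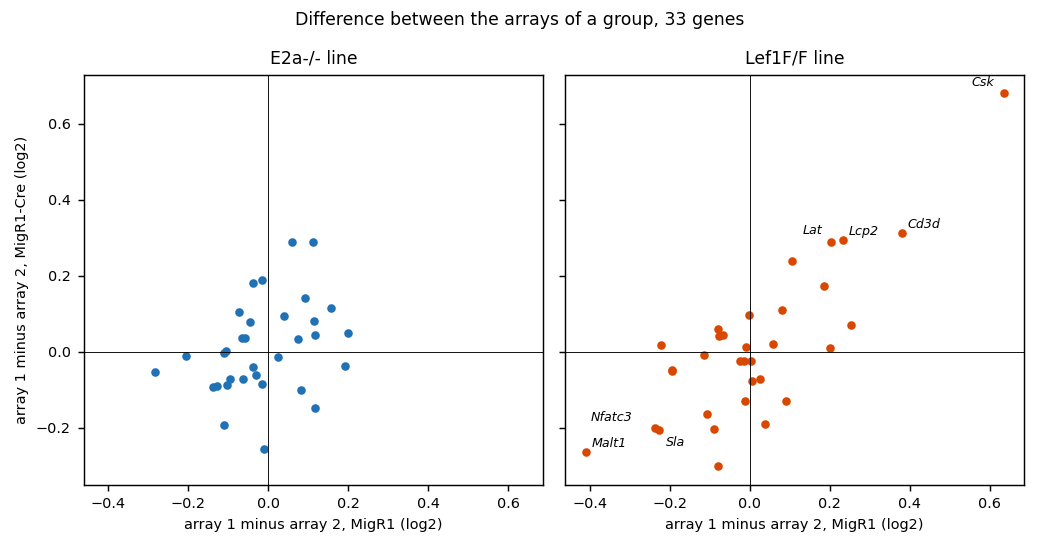
Log2 difference between the 2 arrays of a group for each of 33 genes (points), with MigR1 arrays on the x axis and MigR1-Cre arrays on the y axis, for each line. In the Lef1F/F line (r = 0.80) the 7 named genes lie far from 0 along the diagonal, with Csk at 0.63 and 0.68, whereas the E2a-/- points (r = 0.32) form no such line.

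The larger differences among these genes were between the lines. In MigR1 arrays, 7 of 33 genes were higher in the Lef1F/F than in the E2a-/- line (Cd3e, Cd3g, Skap1, Prkcq, Cblb, Dgka and Cd69) and 3 were lower (Ptprc, Sh2d2a and Ubash3a). Over all 18193 genes, 8.71% were higher and 5.88% lower by the same test, against 21.2% and 9.09% of the 33 genes. Of the 33 genes, all but Rel and Cd69 lay above the array median in every array, while the 18193 were not chosen by intensity. Shares of the 33 beside all genes are therefore not like for like, here and below. In MigR1-Cre arrays, which are a separate set, 8 genes were higher (Cd3e, Cd3g, Fyb, Skap1, Prkcq, Malt1, Nfatc2 and Dgka) and the same 3 lower, with 8.6% higher and 7.46% lower over all genes. The genes called in both sets were 8, which is 80% of those called in MigR1 and 72.7% of those called in MigR1-Cre arrays, close to 80.9% and 73.4% over all genes. In the 13 genes called in either set the sign was the same in both, and the share over all genes was not computed. Both sets come from the same lines, so equal signs are not separate evidence. The median log2 difference of the 33 genes was 0.06 in MigR1 and 0.07 in MigR1-Cre arrays, beside 0.00 in both over all genes.

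**Figure D3:**
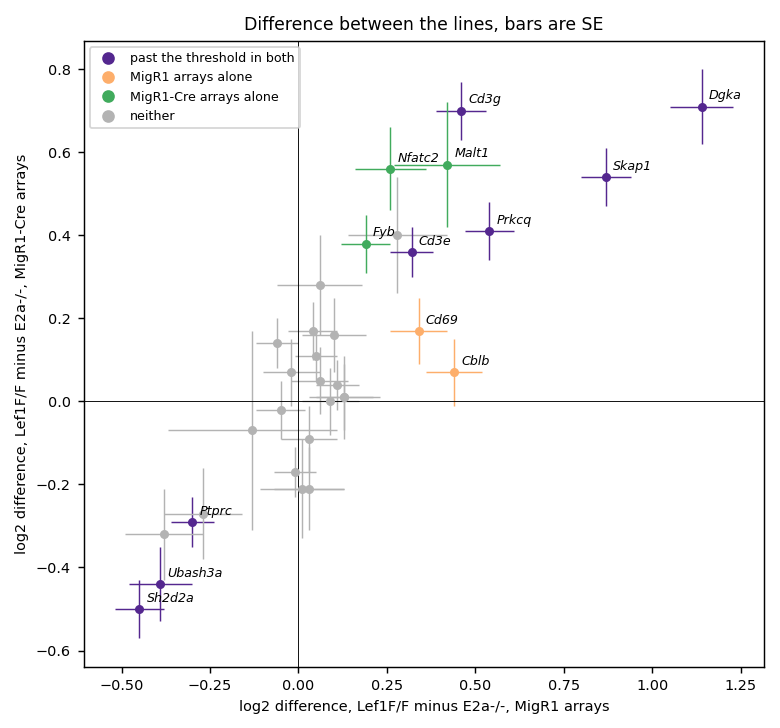
Log2 difference between the Lef1F/F and E2a-/- lines in MigR1 arrays (x axis) and MigR1-Cre arrays (y axis) for 33 genes, with SE bars and colours for the sets in which a gene passed the test. Dgka and Skap1 lie farthest to the right, at 1.14 and 0.87, while Ptprc, Ubash3a and Sh2d2a lie below 0 on both axes.

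The CD3 chains carry the receptor to the surface and hold the motifs that are phosphorylated first. Cd3g stood at 4803.2 and 5250.8 units in E2a-/- MigR1, 4711.4 and 5018.8 in E2a-/- MigR1-Cre, 7090.0 and 6703.5 in Lef1F/F MigR1, and 8213.2 and 7614.8 in Lef1F/F MigR1-Cre arrays. All 4 Lef1F/F arrays lay above all E2a-/- arrays. The log2 difference between the lines was 0.46 (SE 0.07, adjusted p = 0.00594) in MigR1 and 0.70 (SE 0.07, adjusted p = 0.000637) in MigR1-Cre arrays. Cd3e, which encodes the epsilon chain, stood at 773.1 and 804.4, 814.6 and 794.6, 985.1 and 986.1, and 1070.3 and 1001.4 units in the same order of groups. It was higher in every Lef1F/F array too, by 0.32 (SE 0.06, adjusted p = 0.0122) and 0.36 (SE 0.06, adjusted p = 0.00638). Cd3d, the delta chain, ranged from 7739.0 to 8191.4 units in the E2a-/- line and from 8552.2 to 11670.1 in the Lef1F/F line. Its groups did not overlap, yet it did not pass (adjusted p = 0.282 and 0.11), and its Lef1F/F arrays are among those that differ by array number. Cd247, the zeta chain, differed by -0.06 and 0.14 at its brightest probe set without passing, and 1 of its 3 dimmer probe sets was lower in the Lef1F/F line in MigR1 arrays (-0.39, adjusted p = 0.0181).

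The genes of the 3 CD3 chains lie side by side, and since 2 of them were higher in the same line their promoters are shown, from RefSeq on GRCm38.p6, each from 250 bases before to 50 bases after the gene start and read 5′ to 3′ on the strand of the gene. The Cd3g window is chr9:44980382-44980681 on the minus strand, the Cd3d window chr9:44981536-44981835 on the plus strand and the Cd3e window chr9:45009562-45009861 on the minus strand. The starts on which the Cd3g and Cd3d windows were set are 1355 bases apart and point away from each other. Capitals mark matches to CTTTGNN with A or T at each N, a core motif of TCF/LEF factors, searched on both strands, and no matches overlapped.
Cd3g: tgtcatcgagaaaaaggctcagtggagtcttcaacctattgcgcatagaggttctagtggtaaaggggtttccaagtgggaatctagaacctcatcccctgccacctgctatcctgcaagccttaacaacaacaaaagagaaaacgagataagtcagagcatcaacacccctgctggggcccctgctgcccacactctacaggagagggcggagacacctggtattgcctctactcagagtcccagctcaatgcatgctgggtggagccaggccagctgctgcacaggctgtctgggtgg
Cd3d: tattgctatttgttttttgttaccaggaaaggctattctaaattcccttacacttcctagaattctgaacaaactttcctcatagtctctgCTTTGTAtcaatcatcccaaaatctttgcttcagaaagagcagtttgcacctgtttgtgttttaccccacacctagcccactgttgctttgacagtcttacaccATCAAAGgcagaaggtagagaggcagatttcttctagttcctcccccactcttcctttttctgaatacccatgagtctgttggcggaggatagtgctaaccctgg
Cd3e: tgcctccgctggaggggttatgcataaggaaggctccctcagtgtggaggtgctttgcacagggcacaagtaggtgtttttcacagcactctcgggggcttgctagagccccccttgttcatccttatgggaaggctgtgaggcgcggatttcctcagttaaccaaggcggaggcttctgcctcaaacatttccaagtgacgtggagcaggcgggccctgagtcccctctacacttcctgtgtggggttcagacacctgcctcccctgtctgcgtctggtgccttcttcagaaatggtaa
The Cd3d window held a match on its own strand, CTTTGTA at -159 from the start, and another on the opposite strand, ATCAAAG at -55. The windows of Cd3g and Cd3e held none of these letters. Of the 34 genes, 27 had 36 windows in the table, and 3 of these windows, in Ptprc, Cd3d and Lcp2, held a match (8.3%), as did 16.9% of 32851 windows of all genes. A match is a description of the letters and not a binding site.

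At the membrane, Ptprc, which encodes the phosphatase CD45, ranged from 6389.6 to 6727.8 units in the E2a-/- line and from 5117.8 to 5537.8 in the Lef1F/F line. The groups did not overlap, and it was lower in the Lef1F/F line, with log2 differences of -0.30 (SE 0.06, adjusted p = 0.0206) in MigR1 and -0.29 (SE 0.06, adjusted p = 0.0231) in MigR1-Cre arrays. Its dimmer probe set was lower too, with differences of -0.88 and -0.91 (adjusted p = 0.0387 and 0.0312). Ptpn6, the inhibitory phosphatase SHP-1, ranged from 770.0 to 882.3 units with overlapping groups. Csk differed by -0.13 and -0.07, with an SE of 0.24 set by its spread within the Lef1F/F groups.

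The adaptors moved in both directions. Skap1, a partner of the adaptor FYB that acts in integrin adhesion, stood at 928.5 and 953.3 units in E2a-/- MigR1, 968.6 and 855.0 in E2a-/- MigR1-Cre, 1735.7 and 1705.2 in Lef1F/F MigR1, and 1289.0 and 1354.2 in Lef1F/F MigR1-Cre arrays. Every Lef1F/F array lay above every E2a-/- array, with differences of 0.87 (SE 0.07, adjusted p = 0.000168) and 0.54 (SE 0.07, adjusted p = 0.00229). A second of its 3 probe sets was also higher in both sets (0.47 and 0.39), and the third did not pass. Sh2d2a, which encodes the T cell specific adaptor TSAd, stood at 343.7 and 396.5, 364.5 and 367.2, 269.6 and 269.1, and 255.9 and 260.0 units in the same order of groups. It was the reverse of Skap1, lower in every Lef1F/F array, with differences of -0.45 (SE 0.07, adjusted p = 0.00609) and -0.50 (SE 0.07, adjusted p = 0.0035). Fyb, the partner of Skap1, stood at 2678.9 and 2749.7, 2787.6 and 2868.6, 2903.9 and 3320.2, and 3626.4 and 3745.6 units. Its difference passed in MigR1-Cre arrays (0.38, SE 0.07, adjusted p = 0.0127) and not in MigR1 arrays (0.19, adjusted p = 0.167), and at its dimmer probe set in neither. Lat and Lcp2, the central scaffolds LAT and SLP-76, had differences of -0.38 and -0.27 in MigR1 arrays and -0.32 and -0.27 in MigR1-Cre arrays and did not pass. Lat was near the threshold in MigR1 arrays (adjusted p = 0.0605). It passed there as lower with trend and robust moderation, with array weights and in the fit on gene means. The dimmer probe set of Lcp2 differed the other way in MigR1 arrays, by 0.31 (adjusted p = 0.0419). Grap2, which encodes the linker GADS, and Themis, an adaptor of thymocyte selection, lay within 0.17 of 0 at their brightest probe sets. A dimmer Themis probe set differed by -0.72 and -0.76 without passing (adjusted p = 0.0817 and 0.0632), and its other dimmer ones lay between -0.16 and -0.05. With the mean of all its probe sets Themis passed as lower in both sets.

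In the phospholipase and actin branch no gene passed. Vav1, an exchange factor for Rac, stood at 597.4 and 616.6 units in E2a-/- MigR1, 622.8 and 589.5 in E2a-/- MigR1-Cre, 579.0 and 623.1 in Lef1F/F MigR1, and 600.5 and 672.6 in Lef1F/F MigR1-Cre arrays, and its groups overlapped. Plcg1 ranged from 824.6 to 925.8 units, and Was, an activator of actin assembly, from 1101.6 to 1265.2.

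In the NF-kB branch, Prkcq, which encodes protein kinase C theta, stood at 403.8 and 408.4, 401.4 and 352.0, 591.6 and 588.7, and 486.2 and 512.8 units in the same order of groups. All Lef1F/F arrays were above all E2a-/- arrays, with differences of 0.54 (SE 0.07, adjusted p = 0.00245) and 0.41 (SE 0.07, adjusted p = 0.00917). Malt1, the protease and scaffold next to BCL10, stood at 161.7 and 149.7, 171.1 and 140.2, 180.6 and 239.9, and 209.9 and 252.0 units. Its groups did not overlap either, but its difference passed only narrowly and in MigR1-Cre arrays alone (0.57, SE 0.15, adjusted p = 0.0498), and both dimmer probe sets lay within 0.07 of 0 in both sets. Bcl10, Rel and Rela did not pass, with differences between 0.00 and 0.13.

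Of the NFAT factors, Nfatc2 stood at 142.5 and 143.5 units in E2a-/- MigR1, 130.2 and 155.4 in E2a-/- MigR1-Cre, 165.7 and 176.2 in Lef1F/F MigR1, and 196.1 and 225.6 in Lef1F/F MigR1-Cre arrays. It was above the E2a-/- level in every Lef1F/F array and passed in MigR1-Cre arrays (0.56, SE 0.10, adjusted p = 0.00826) but not in MigR1 arrays (0.26, adjusted p = 0.175). Its 5 dimmer probe sets lay between -0.11 and 0.05 in both sets, and the mean over all 6 gave 0.07 (adjusted p = 0.446) in MigR1-Cre arrays. Nfatc1 and Nfatc3 did not pass at their brightest probe sets, and the dimmer Nfatc3 probe set was lower in MigR1-Cre arrays (-0.58, adjusted p = 0.0395). With the mean of all its probe sets Nfatc3 passed as lower in both sets.

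Among the genes that limit the signal was the largest difference of the 33. Dgka, a kinase that removes diacylglycerol, stood at 114.9 and 108.5 units in E2a-/- MigR1, 109.1 and 116.9 in E2a-/- MigR1-Cre, 262.3 and 230.6 in Lef1F/F MigR1, and 196.1 and 173.8 in Lef1F/F MigR1-Cre arrays. The lines were far apart, with differences of 1.14 (SE 0.09, adjusted p = 0.000119), a 2.20-fold higher level, and 0.71 (SE 0.09, adjusted p = 0.00154). Cblb, a ubiquitin ligase, stood at 554.0 and 519.5, 549.3 and 497.7, 739.9 and 720.5, and 513.4 and 585.9 units in the same order. The lines were apart in MigR1 arrays (0.44, SE 0.08, adjusted p = 0.0119) and overlapped in MigR1-Cre arrays (0.07, adjusted p = 0.724). Its other probe sets differed by -0.37 and 0.11 in MigR1 arrays without passing, and the mean over its 3 probe sets gave 0.06 (adjusted p = 0.728). Ubash3a, an inhibitor that acts on phosphorylated receptor complexes, stood at 401.6 and 431.6, 407.1 and 432.3, 347.4 and 291.3, and 316.0 and 301.2 units. It was lower in every Lef1F/F array, with differences of -0.39 (SE 0.09, adjusted p = 0.0317) and -0.44 (SE 0.09, adjusted p = 0.0166). Cbl, Dgkz, Sla and Sla2 had differences between -0.21 and 0.17 and did not pass.

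Cd69, an early marker of activation, was below the array median throughout. It stood at 44.3 and 38.6 units in E2a-/- MigR1, 43.7 and 42.2 in E2a-/- MigR1-Cre, 51.1 and 53.5 in Lef1F/F MigR1, and 49.0 and 47.5 in Lef1F/F MigR1-Cre arrays. The lines did not overlap, and the difference passed in MigR1 arrays (0.34, SE 0.08, adjusted p = 0.0276) and not in MigR1-Cre arrays (0.17, adjusted p = 0.241). An offset of 50 units before the log took the first to 0.16 (adjusted p = 0.0537).

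**Figure D4:**
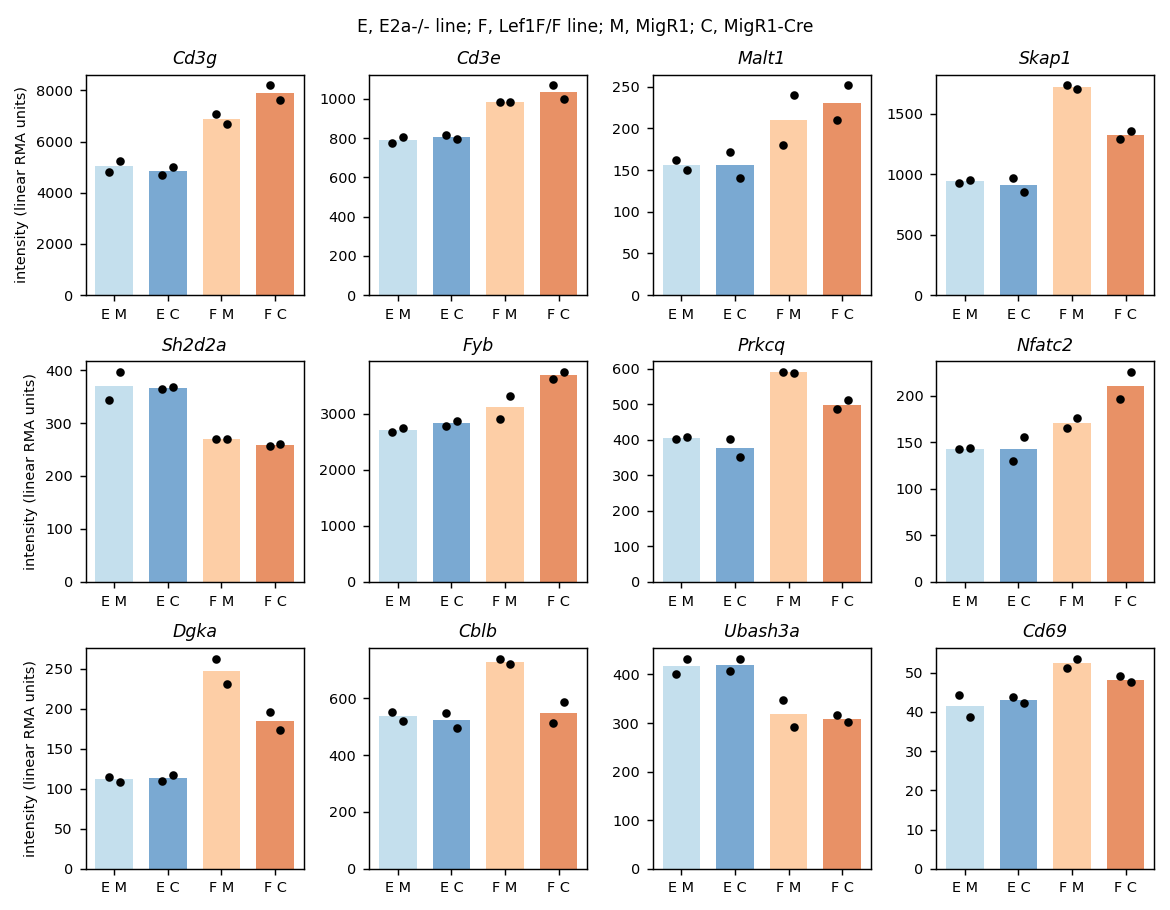
Linear intensity of 12 genes in the 4 groups (bars, group means; points, the 2 arrays of a group), with each y axis starting at 0. Dgka, Skap1 and Prkcq are high in Lef1F/F MigR1 and lower in Lef1F/F MigR1-Cre arrays, Cd3g and Fyb are highest in Lef1F/F MigR1-Cre arrays, and Sh2d2a and Ubash3a are low in both Lef1F/F groups.

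With so few arrays, several of these calls did not hold when 1 array was left out. Leaving out an array also lowers the residual degrees of freedom, which cannot be told apart here from an influence of that array. Only losses are listed here. In MigR1 arrays, Skap1, Sh2d2a, Prkcq and Dgka passed without any 1 of the 8 arrays. Without E2a-/- MigR1 array 1 the count fell from 10 to 5, with Cd3e (adjusted p = 0.106), Cd3g (0.0652), Ptprc (0.157), Cblb (0.0574) and Ubash3a (0.107) lost. Without E2a-/- MigR1 array 2 it was also 5, with Cd3e (adjusted p = 0.0592), Ptprc (0.0747), Cblb (0.109), Ubash3a (0.212) and Cd69 (0.177) lost. In the same comparison Ptprc (adjusted p = 0.0861) and Cd69 (0.0501) were lost without Lef1F/F MigR1 array 1, Cd3e (0.0602), Ubash3a (0.15) and Cd69 (0.139) without array 2, and Ubash3a (0.0604) and Cd69 (0.0553) without either E2a-/- MigR1-Cre array. In MigR1-Cre arrays, Cd3g, Skap1, Sh2d2a and Dgka passed without any 1 array. Without E2a-/- MigR1-Cre array 1 the count fell from 11 to 6, with Ptprc (adjusted p = 0.128), Fyb (0.0898), Malt1 (0.0801), Nfatc2 (0.0582) and Ubash3a (0.0671) lost. Without E2a-/- MigR1-Cre array 2 it was 5, with Cd3e (adjusted p = 0.0549), Ptprc (0.0966), Fyb (0.0678), Prkcq (0.0605), Malt1 (0.301) and Ubash3a (0.126) lost. Without Lef1F/F MigR1-Cre array 2 it was 6, with Ptprc (adjusted p = 0.0896), Fyb (0.0678), Prkcq (0.0553), Malt1 (0.23) and Ubash3a (0.084) lost, and without array 1 of that group Ptprc was lost (0.0668). Malt1 was also lost without either E2a-/- MigR1 array (adjusted p = 0.097).

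The question asked of MigR1-Cre was how the genes respond once LEF1 loses its DNA binding domain. In the Lef1F/F line 0 of 33 genes passed the limma test, beside 0.286% of all genes, and the lowest adjusted p was 0.204. Unadjusted p-values under 0.05 were found for 9 of the 33 (27.3%), beside 6.28% of all genes. Their log2 differences were those of Skap1 (-0.38), Cblb (-0.41), Dgka (-0.41), Prkcq (-0.24) and Sla2 (-0.19) below MigR1, and Nfatc2 (0.30), Fyb (0.25), Cd3g (0.20) and Cbl (0.19) above it. The median over the 33 was -0.01, beside 0.00 over all genes, and the 95% intervals reached from -0.62 to 0.55. For Skap1 the interval was -0.55 to -0.21 (adjusted p = 0.204), for Cblb -0.61 to -0.22 (adjusted p = 0.24) and for Dgka -0.62 to -0.21 (adjusted p = 0.287). In each of these genes both MigR1-Cre arrays lay below both MigR1 arrays of the line. They were named for the smallest p-values of the limma test in this comparison, so this separation is not further evidence. With the Lef1F/F arrays blocked by number, a pairing taken from the data and not from the labels, these 3 genes passed as lower (adjusted p = 0.0336 for Skap1, 0.031 for Cblb and 0.0108 for Dgka). These effects share the Lef1F/F arrays with the differences between the lines given above, so they are not separate evidence. The share of all genes called under the block was not computed. Among the further pathway genes described below, 6 passed with it in place of 4.

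The E2a-/- line, whose Lef1 has no loxP sites, was the control for MigR1-Cre itself. Again 0 of 33 genes passed, beside 0% of all genes, and 0 had an unadjusted p under 0.05, beside 1.7% of all genes. The log2 differences ran from -0.11 to 0.09, with Prkcq lowest and Dgkz highest, and the widest interval was that of Csk, from -0.63 to 0.48. The corresponding effects were -0.05 for Skap1, -0.04 for Cblb and 0.02 for Dgka. For the difference of the effects between the lines, 0 of 33 passed, beside 0.033% of all genes, with unadjusted p under 0.05 for Cd3g, Skap1, Cblb and Dgka, which is 12.1% of the 33 beside 4.1% of all genes. That difference was 0.24 (95% interval 0.00 to 0.49) for Cd3g, -0.33 (-0.57 to -0.09) for Skap1, -0.38 (-0.65 to -0.10) for Cblb and -0.43 (-0.72 to -0.14) for Dgka, each with an adjusted p of 1.

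**Figure D5:**
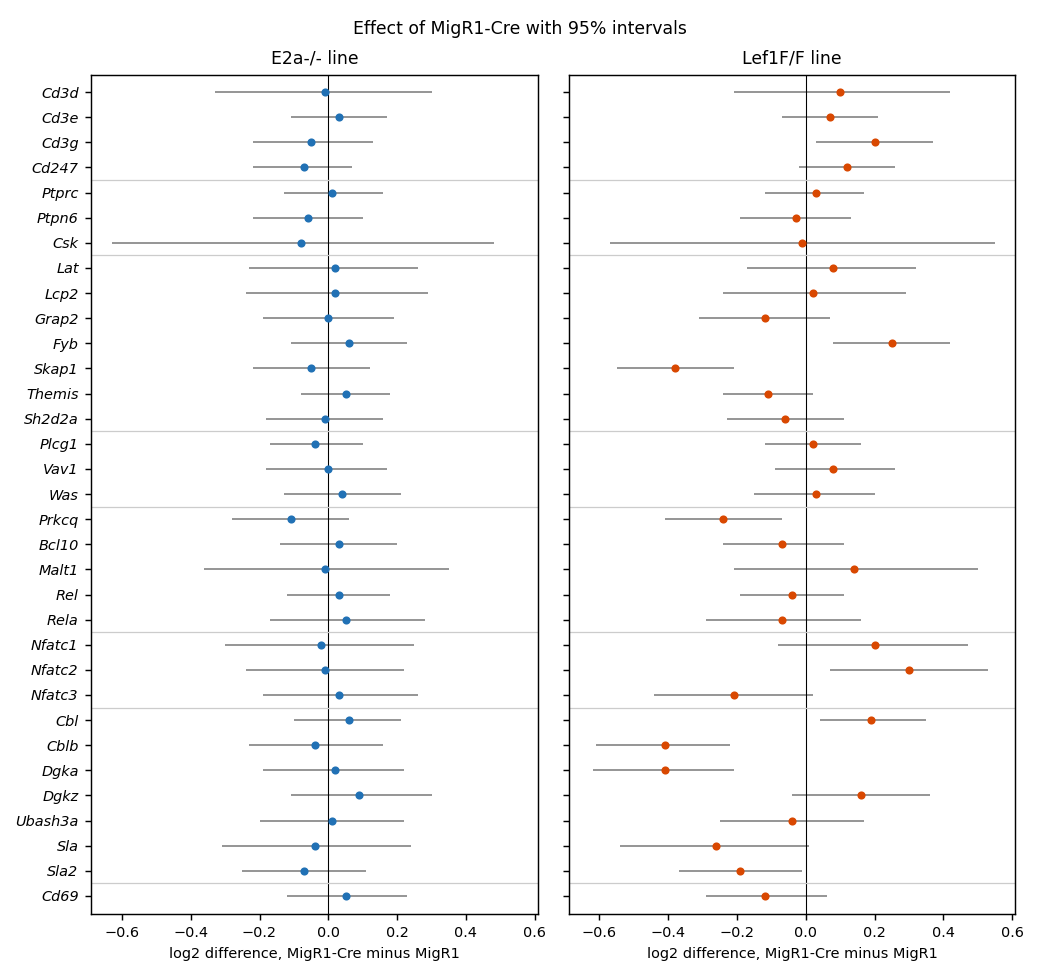
Log2 difference between MigR1-Cre and MigR1 arrays with 95% intervals for 33 genes, ordered by role with lines between roles, in the E2a-/- line (left) and the Lef1F/F line (right). E2a-/- effects lie between -0.11 and 0.09 and Lef1F/F effects between -0.41 and 0.30, and the intervals of 9 genes exclude 0 in the Lef1F/F line before adjustment.

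A further 70 genes of the pathway, such as kinases, the Ras branch and calcineurin, were listed with earlier results of these data known. Their shares beside all genes are therefore descriptions and not a test. Of the 70, 64 were measured. In MigR1 arrays 27 of them (42.2%) were higher in the Lef1F/F line and 1 (1.56%) was lower, beside 8.71% and 5.88% of all genes. In MigR1-Cre arrays 24 (37.5%) were higher and 3 (4.69%) lower, beside 8.6% and 7.46% of all genes. With MigR1-Cre in the Lef1F/F line 4 of 64 fell, beside 0.22% of all genes, and 0 rose. They were Syk, a relative of ZAP-70 (-1.37, SE 0.06, adjusted p = 0.000584), Rasgrp1, which links diacylglycerol to Ras (-0.79, adjusted p = 0.00531), the phosphatase gene Ptpn22 (-0.68, adjusted p = 0.0157) and the immediate early gene Egr1 (-0.69, adjusted p = 0.0175). None of the 4 passed when only the arrays of that line were fitted, and only Syk and Rasgrp1 passed when any 1 array other than Lef1F/F MigR1 array 2 was left out. In the E2a-/- line 0 of 64 passed, and 1 had an unadjusted p under 0.05. The widest differences between the lines among the 64, taken over both sets of arrays, were those of Syk (1.99), Nfkbie, an inhibitor of NF-kB (1.36 in MigR1-Cre arrays), Rasgrp1 (1.33), the lipid phosphatase gene Inpp5d (1.22), Egr1 (1.13) and the kinase gene Txk (1.00).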

How the data were processed

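Total RNA of GFP+ cells from 8 samples was hybridised to Affymetrix mouse arrays after labelling by in vitro transcription from the 3' end. The version of the array differs between the series text and the methods. The authors normalised the scans by RMA, and the deposited values are linear intensity units, 1 per probe set and array, with no pooling. RMA makes the distributions of arrays alike, so a change in total RNA cannot be seen, and it compresses differences between low intensities. Groups were taken from the sample titles, with which a field naming the retrovirus disagrees for E2a-/- MigR1-Cre and Lef1F/F MigR1 arrays. Arrays were numbered in the order of the records.

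Here log2 was taken with no offset, because the deposited intensities were linear, and the 4 group means were fitted over all arrays with limma 3.58.1 in R 4.3.3 (lmFit and eBayes, 4 residual and 3.99 prior degrees of freedom). The 5 comparisons were MigR1-Cre against MigR1 in each line, Lef1F/F against E2a-/- within each vector, and the difference between the MigR1-Cre effects. Adjusted p-values are two-sided and by Benjamini-Hochberg over 45037 probe sets, with a threshold of 0.05. Genes were named from the platform annotation only where a probe set had 1 symbol (34945 probe sets; 932 had several and 9160 none). The fit was tested on simulated data.

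The genes, lists and tests were chosen with earlier results of these data known. Genes past the threshold in any comparison are given in every array for the 12 with the largest change and as a range for Ptprc, together with, in a role with none, the gene of smallest p for MigR1-Cre in the Lef1F/F line, the further pathway genes past the threshold with MigR1-Cre, and the 6 with the largest difference between the lines. Alternatives were tried for moderation, an offset of 50, a filter on intensity (percentile 40), the probe sets of a gene, normalisation, the arrays fitted, a pairing of arrays and a test against a fold of 1.5. Promoter windows are RefSeq sequence on GRCm38.p6.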

Additional observations from a re-analysis of the deposited data

Results flagged for a closer look

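The effect of MigR1-Cre differed between the lines by the interaction test for Lef1, the targeted gene, with a difference of effects of -1.82 (SE 0.13, adjusted p = 0.0184). The same test passed for the kinase gene Syk, with a difference of -1.18 (SE 0.09, adjusted p = 0.0184), and for none of the 33 adaptor and effector genes, in which 4 had an unadjusted p under 0.05 in limma.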

How the results depend on the processing

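No value past the threshold in either setting changed direction. The sign turned in 3 values, none of them past it, all for MigR1-Cre in the Lef1F/F line without Lef1F/F MigR1 array 1: Ptprc from 0.03 to -0.03, Malt1 from 0.14 to -0.06 and Ubash3a from -0.04 to 0.08. Of the counts recomputed under the alternatives, 104 stayed within 1.5 times the reported count, 2 were above and 19 below. The 104 include counts of 0 that stayed at 0. Of the values of single genes, 541 kept their side of the threshold, 66 lost it and 3 gained it. The 541 include values for MigR1-Cre in the Lef1F/F line, none of which had passed in the main fit. All 66 losses were among the differences between the lines that had passed. The 3 gained were Skap1, Cblb and Dgka, which were lower with MigR1-Cre in the Lef1F/F line when its arrays were blocked by number, a pairing chosen from the data and not given by the labels; the count there was 3 in place of 0. With that replicate block 16 genes differed between the lines in MigR1 arrays, in place of 10, and 16 in MigR1-Cre arrays, in place of 11; Cd3d, Lat and Lcp2 were gained in both, Fyb, Malt1 and Nfatc2 in MigR1 arrays, and Nfatc1 and Nfatc3 in MigR1-Cre arrays. Shares over all genes under the block were not computed. Against a fold of 1.5, 1 gene (Dgka) differed between the lines in MigR1 arrays and 0 in MigR1-Cre arrays. Leaving out 1 array gave 5 to 11 genes in MigR1 arrays and 5 to 12 in MigR1-Cre arrays. The alternatives for the further pathway genes were chosen after seeing the data. With the replicate block 6 of these genes passed for MigR1-Cre in the Lef1F/F line, and 35 differed between the lines in MigR1 arrays. Their count with MigR1-Cre in the Lef1F/F line, 4, became 1 against a fold of 1.5, 0 with only the arrays compared, and 2 to 4 without 1 array; their count between the lines in MigR1 arrays, 28, became 4 against a fold of 1.5 and 17 to 29 without 1 array. The causes were not tested. The fit on only the arrays compared gives no value for the difference of effects. With 2 arrays a group, small differences may be missed, and those of dim probe sets such as Cd69 and Rel are compressed.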
